A study of Mus musculus with 5 samples.

Results

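Dll1, Dll3, Mesp2 and Foxc2 are 4 mouse genes of the presomitic mesoderm, the tissue that is cut into somites along the trunk, and their levels were followed from embryonic stem cells (ESCs) through a differentiation towards heart muscle. All probes whose gene symbol was Dll1, Dll3, Mesp2 or Foxc2, ignoring case, were taken, which gave 4 probes of 26423, 1 for each of 4 genes of 17742 named genes. All cultures came from the mouse ESC line 46C. The knockdown arrays held cells derived from Linc1405 knockdown ESCs, at day 4, called mesoderm in the labels, and at day 10, called cardiomyocytes, with Linc1405 being a long non-coding RNA. The control arrays held cells derived from control ESCs at the same 2 stages, and a further array held undifferentiated ESCs at day 0, labelled control and harvested after the feeder cells had been removed. Each of the 5 groups was measured on 1 single-colour microarray. The titles of the knockdown samples carry the name 1405KIpA, which the labels do not explain, and the labels do not give the number of clones behind the line. No named probe carried the symbol Linc1405, and the knockdown itself was not checked. Day 4 cells grew in serum-free medium with Bmp4, Activin A and VEGF, and day 10 cells in a medium with bFGF, VEGF and FGF10.

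Dll1 and Dll3 encode Delta ligands of the Notch pathway, in which a ligand on 1 cell engages a Notch receptor on its neighbour and the cut receptor enters the nucleus to switch on genes such as those of the Hes family. Dll1 is the main activating ligand of the presomitic mesoderm, whereas Dll3 is a divergent ligand that is held largely inside the cell and dampens Notch signalling. Mesp2 encodes a basic helix-loop-helix factor that sets the border of each forming somite, downstream of Notch and of the T-box factor Tbx6. Foxc2 encodes a forkhead factor that acts with its close relative Foxc1 in forming somites, and later in blood and lymphatic vessels and in mesenchyme. The cultures studied here were directed to cardiac mesoderm, not to somites, and the labels name no somite stage.

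Since a group was a single array, the spread between cultures is unknown and nothing could be tested, so differences describe the arrays at hand. Probe error alone was estimated, as an SD between probes, from genes with more than 1 probe past the filter. It was 0.207 on the log2 scale for knockdown minus control at day 4 (1034 genes), 0.272 at day 10 (1074 genes), 0.612 for control day 4 minus ESCs and 0.743 for control day 10 minus control day 4. Intensities were quantile normalised over the 5 arrays and floored at 100, a log2 value of 6.64. A gene was called where the brighter array lay at or above the 50th percentile of all probes, a log2 intensity of 9.16, and the arrays were at least 2-fold apart. Marker genes followed the labels: of the measured pluripotency markers 7 of 8 were called lower in control day 4 cells than in ESCs, 9 of 10 early mesoderm markers were called higher in the same comparison, and 9 of 9 cardiomyocyte markers were called higher at day 10 than at day 4 in control cells. Fibroblast markers were also high at day 10, with 7 of 9 called higher than at day 4 in control cells. Of all genes past the filter, 12.8% were called higher and 13.9% lower in control day 4 cells against ESCs. At day 10 against day 4 in control cells 19.1% were called higher.

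**Figure D1:**
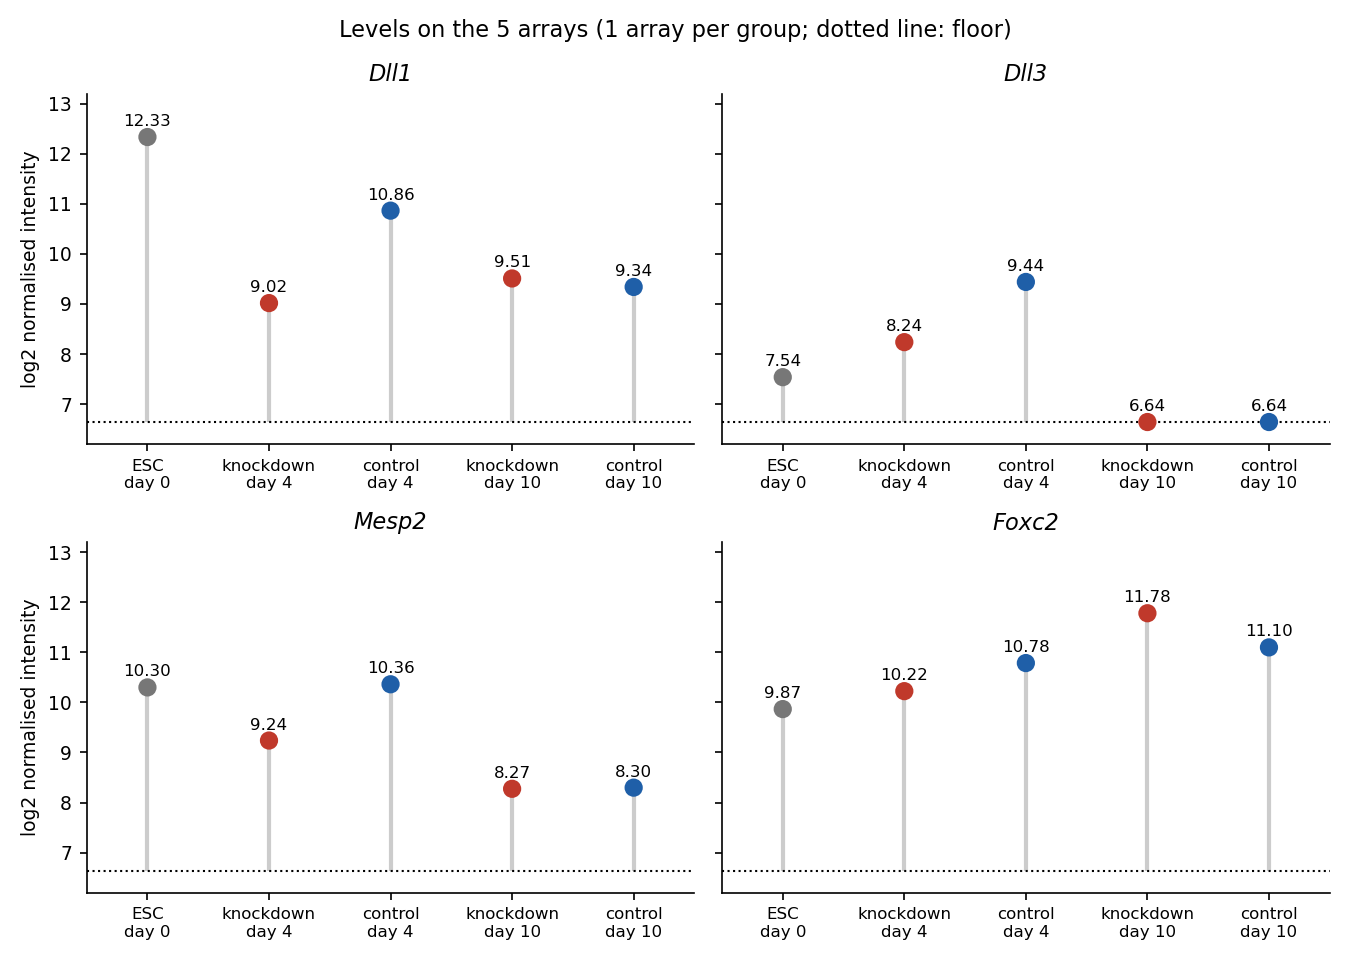
Log2 normalised intensity (vertical axis) of Dll1, Dll3, Mesp2 and Foxc2 on the 5 arrays (horizontal axis), grey for ESCs, red for Linc1405 knockdown and blue for control cells; each point is 1 array, so there are no error bars, and the dotted line is the floor at 6.64. At day 4 the knockdown point lies below the control point in all 4 panels, and at day 10 Dll3 sits at the floor in both lines.

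At day 4 the level of each of the 4 genes was lower in knockdown than in control cells, and 3 of the 4, Dll1, Dll3 and Mesp2, were called lower. Over all genes past the intensity filter at day 4, 1.47% were called lower and 0.804% higher (10699 genes). The members were chosen with earlier results of these arrays known, so their count is a description. In these bulk cultures fewer cells of a type and less RNA per cell cannot be told apart. At day 10 none of the 4 was called in either direction, at 3.62% of all genes called lower and 2.5% called higher, but only Dll1 and Foxc2 were past the filter there.

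Dll1 had a deposited intensity of 4507 in ESCs, 677 in knockdown and 2083 in control cells at day 4, and 634 in knockdown and 396 in control cells at day 10. After normalisation the log2 levels in the same order were 12.33, 9.02, 10.86, 9.51 and 9.34. The ESC array was the highest, control day 4 came next, and the remaining 3 arrays formed the low end, where neighbouring levels lay within the SD between probes. At day 4 Dll1 was at 9.02 in knockdown and 10.86 in control cells, a log2 difference of -1.84, or 3.59-fold lower. Among the 10699 genes past the filter 29 had a lower difference than Dll1. At day 10 the difference was 0.17, within the SD between probes.

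Control cells at day 4 had less Dll1 signal than ESCs, with a log2 difference of -1.47, and control cells at day 10 less than at day 4, with -1.52. The knockdown line differed in its later course, since Dll1 was at 9.51 at day 10 and 9.02 at day 4, a difference of 0.49, within the SD between probes of 0.707. The day 4 level of the knockdown cells was thus already near the day 10 levels of both lines.

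Dll3, the divergent ligand, had a deposited intensity of 226 in ESCs, 406 in knockdown and 798 in control cells at day 4, and 32 in knockdown and 34 in control cells at day 10. Its log2 levels were 7.54 in ESCs, 8.24 and 9.44 in knockdown and control cells at day 4, and at the floor of 6.64 in both lines at day 10. Control day 4 was the peak, with the knockdown array of the same day between it and ESCs. The knockdown minus control difference at day 4 was -1.20, or 2.30-fold lower, and 111 genes past the filter lay lower. No difference is given at day 10, where both arrays were at the floor. Even on control day 4, its highest array, the Dll3 probe exceeded only 53.0% of all probes.

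Dll3 was the only one of the 4 genes called higher in control day 4 cells than in ESCs, by 1.90, and Dll1 was the only one called lower, so the Delta ligands stood on opposite sides in this comparison. In control cells at day 10 Dll3 was lower than at day 4 by at least 2.80 on the log2 scale, a bound set by the floor. In knockdown cells the same comparison gave at least 1.59, without a call because neither array was past the filter.

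Mesp2, the somite border factor, had a deposited intensity of 1260 in ESCs, 782 in knockdown and 1483 in control cells at day 4, and 230 in knockdown and 182 in control cells at day 10. Its log2 levels were 10.30 in ESCs, 9.24 and 10.36 in knockdown and control cells at day 4, and 8.27 and 8.30 in knockdown and control cells at day 10. ESCs and control day 4 cells shared the top level, 0.06 apart, and both day 10 arrays shared the lowest. Knockdown cells at day 4 lay between, with a log2 difference of -1.12 from control, or 2.18-fold lower, and 132 genes past the filter lay lower. At day 10 the lines differed by -0.02, with both arrays under the filter. Control day 10 cells had less Mesp2 signal than control day 4 cells, with a log2 difference of -2.06, whereas knockdown cells differed by -0.96 between the same days, short of a call that the values as deposited and scaling to the 75th percentile did give.

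Foxc2, the forkhead factor, had a deposited intensity of 983 in ESCs, 1516 in knockdown and 1975 in control cells at day 4, and 3532 in knockdown and 1515 in control cells at day 10. Its log2 levels were 9.87 in ESCs, 10.22 and 10.78 in knockdown and control cells at day 4, and 11.78 and 11.10 in knockdown and control cells at day 10. Unlike the other members, Foxc2 was lowest in ESCs and highest at day 10. However, ESCs lay within the SD between probes of knockdown day 4 (0.36 apart). Control day 10 likewise lay within it of control day 4 (0.31 apart). At day 4 it was at 10.22 in knockdown and 10.78 in control cells, a log2 difference of -0.56, or 1.47-fold lower, beyond the SD between probes but short of a call, with 420 genes lower. At day 10 knockdown cells had more Foxc2 signal than control cells, by 0.68 or 1.60-fold, again beyond that SD and short of a call, with 589 of 10880 genes higher.

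The course of Foxc2 from day 4 to day 10 differed in size between the lines. In knockdown cells it was higher at day 10 by 1.55 and was called, whereas in control cells it was higher by 0.31, within the SD between probes. In control day 4 cells Foxc2 was above ESCs by 0.92, short of a call. Across all genes, control day 4 against ESCs called 12.8% higher and 13.9% lower, control day 10 against control day 4 called 19.1% higher and 19.4% lower, and knockdown day 10 against knockdown day 4 called 18.7% higher and 18.1% lower. Beside those shares, 1 of the 4 members was called higher and 1 lower for control day 4 against ESCs, 0 higher and 3 lower for control day 10 against control day 4, and 1 higher and 0 lower for knockdown day 10 against knockdown day 4. The control day 4 array enters both control comparisons and also the knockdown comparison at day 4.

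**Figure D2:**
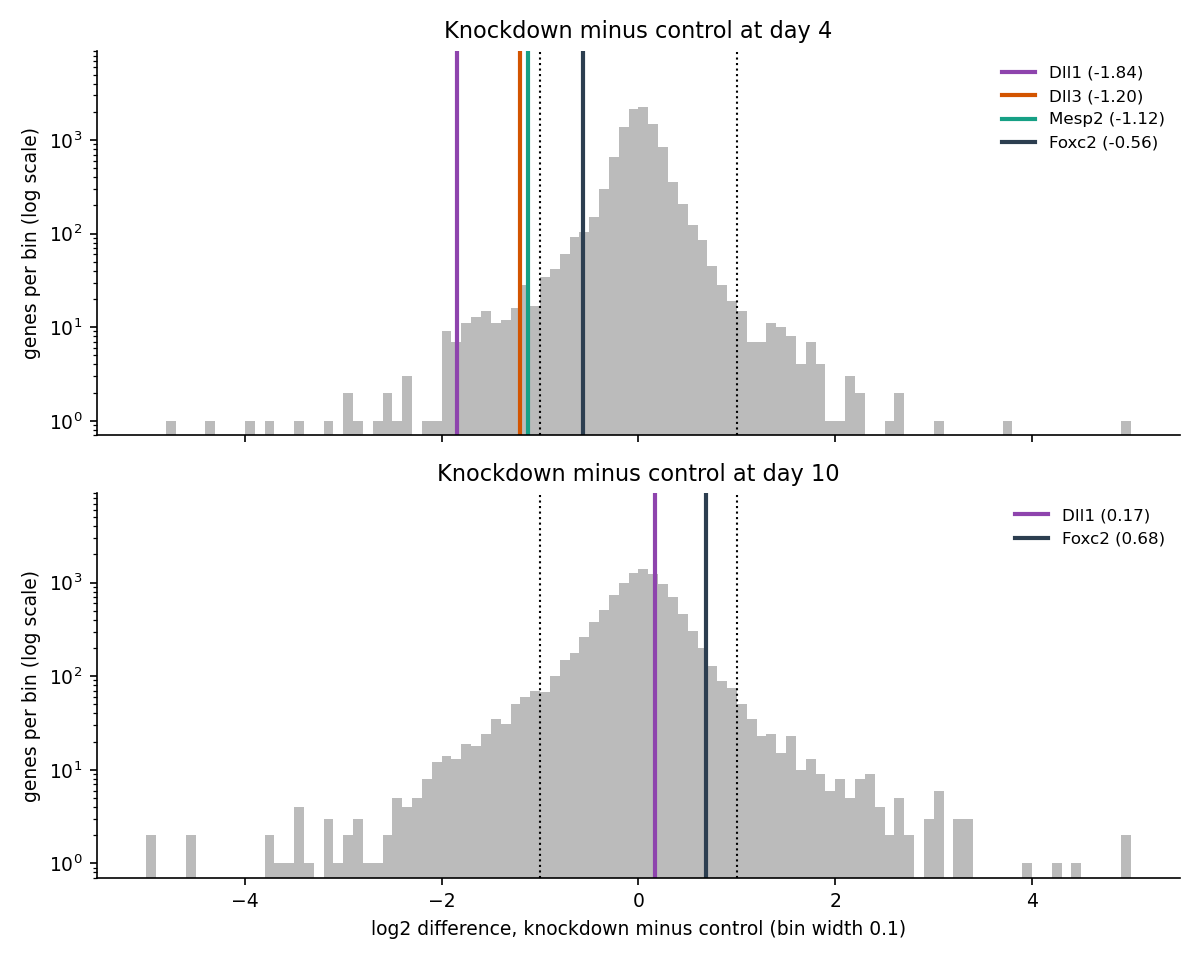
Number of genes past the intensity filter (vertical axis, log scale) by log2 difference, knockdown minus control (horizontal axis, bins of 0.1, with values beyond the axis in the end bins), at day 4 above and day 10 below; coloured lines mark the members past the filter and dotted lines mark 2-fold. At day 4 Dll1 (-1.84), Dll3 (-1.20) and Mesp2 (-1.12) lie left of the 2-fold line and Foxc2 (-0.56) right of it, and at day 10 Dll1 (0.17) and Foxc2 (0.68) lie between the lines.

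How far a single probe can be relied on bears on all 4 genes, because each had 1 probe. At day 4, 9 of 1034 genes with a pair of probes past the filter were 2-fold apart on the brighter probe, and 8 of these had the same sign on the other probe, 5 of them again at least 2-fold. At day 10 the brighter probe was 2-fold apart for 51 of 1074 genes, with the same sign on the other probe for 48 and a 2-fold difference of the same sign for 29.

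The sequences before the start sites of the genes called lower at day 4 are shown because these genes moved to the same side in the same pair of arrays. RefSeq promoter entries of GRCm38.p6 covered 3 of the 4 genes, and Dll1 had a pair of start sites, of which the outer one is printed. Each run is the 250 bases before the start, 5′ to 3′ on the gene's strand, and capitals mark E-boxes (CANNTG, bound by basic helix-loop-helix factors) and the T-box core (GGTGTG or its reverse complement CACACC).
Dll1 (chr17:15376933-15377182, minus strand): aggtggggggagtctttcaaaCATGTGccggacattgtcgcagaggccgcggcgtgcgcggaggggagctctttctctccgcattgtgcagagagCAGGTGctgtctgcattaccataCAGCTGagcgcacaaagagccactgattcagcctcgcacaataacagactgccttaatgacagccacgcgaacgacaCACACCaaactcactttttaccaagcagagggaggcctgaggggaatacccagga
Dll3 (chr7:28301786-28302035, minus strand): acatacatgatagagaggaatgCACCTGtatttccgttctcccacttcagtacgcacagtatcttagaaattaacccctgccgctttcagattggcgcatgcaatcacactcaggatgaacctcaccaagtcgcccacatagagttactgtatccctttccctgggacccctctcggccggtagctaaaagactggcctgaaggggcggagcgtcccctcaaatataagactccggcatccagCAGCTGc
Mesp2 (chr7:79810477-79810726, plus strand): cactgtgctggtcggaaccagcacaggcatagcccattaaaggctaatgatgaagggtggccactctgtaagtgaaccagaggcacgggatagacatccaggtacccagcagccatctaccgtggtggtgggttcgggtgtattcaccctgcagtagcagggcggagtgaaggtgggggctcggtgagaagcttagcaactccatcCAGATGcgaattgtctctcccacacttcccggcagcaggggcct

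Both strands were searched for 4 motifs, and none of the marked matches overlap. The T-box core was found 1 time before each start of Dll1, 55 bases before the outer start, and was not found before Dll3 or Mesp2. Of all 32851 promoter entries 16.3% hold that core within the same length. E-boxes were found 3 times before the outer and 1 time before the inner start of Dll1, 2 times before Dll3 and 1 time before Mesp2, against 66.2% of all promoters with at least 1. The core of RBPJ, the DNA-binding partner of Notch (GTGGGAA), and the TCF/LEF core of Wnt signalling (CTTTGA) were found before none of these starts, and 5.42% and 13.8% of all promoters hold them. Such matches are descriptions of these windows and say nothing of binding.

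None of the other measured ligands of the pathway was called lower at day 4, but Dll4 and Jag2 were under the filter there. At 1.47% of all genes past the filter called lower and 0.804% higher, this is no result about so few genes. Of 10 ligand and receptor genes listed, 6 were measured, the 4 Notch receptor genes not being among the named probes, and at day 4 the list held 2 genes called lower, Dll1 and Dll3, and 1 called higher. The higher one was Dlk1, a non-canonical Delta-like gene, at 13.02 in knockdown and 11.23 in control cells, a log2 difference of 1.79, with 0.75 from a dimmer probe. Dll4, the Delta ligand of blood vessels, differed by -0.04 at day 4, with both arrays under the filter. Jag1, a ligand of the Jagged type, was at 10.98 in knockdown and 10.77 in control cells, a difference of 0.21, and Jag2 differed by -0.35 under the filter. The median of the 6 was -0.20, beside 0 over all genes, but the 6 include the members Dll1 and Dll3, so it does not describe the other ligands.

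At day 10 Jag2 was the single gene of the ligand list called lower, at 9.41 in knockdown and 10.53 in control cells, a difference of -1.12. Dll4 (-0.33), Jag1 (-0.07) and Dlk1 (0.26, other probe 0.73) were not called. The list's median was -0.04, in which Dll3, at the floor in both arrays, counted as 0. In control cells the ligands were called in both directions over time, where 19.1% of all genes past the filter were called higher at day 10 and 19.4% lower. Jag1 (2.40), Jag2 (2.14), Dll4 (1.70) and Dlk1 (5.72, other probe 2.35) were called higher at day 10 than at day 4, while Dll1 and Dll3 were called lower.

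Among genes that Notch signalling uses or switches on no call was made between the lines, which at the shares of 1.47% and 0.804% over all genes at day 4 is no result about lists of this size. Among 21 measured genes for processing and nuclear partners, which include glycosyltransferases, proteases and RBPJ cofactors, 0 were called in either direction on either day, with medians of -0.01 at day 4 and 0.02 at day 10. Of 6 measured Notch target genes 0 were called on either day, with medians of -0.15 and -0.13, although scaling to the 75th percentile and loess centring each called 1 of them lower at day 10. Hes1, a repressor that Notch induces, was at 14.58 in knockdown and 14.88 in control cells at day 4 and at 12.06 and 12.94 in knockdown and control cells at day 10, differences of -0.29 and -0.88, with -0.13 and -0.09 on its other probe. For Hes6 the differences were -0.28 and, just short of a call, -0.99, and for Bhlhe40 they were -0.03 and -0.17.

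Genes of the segmentation clock, the oscillator that times somite borders, included 17 measured members. At day 4, 16 of them were past the filter, 2 were called lower and 0 higher, with a median of -0.09. Beside this, 1.47% of all genes past the filter were called lower and 0.804% higher. Sp5, a Wnt target and transcription factor, was at 9.56 in knockdown and 12.03 in control cells, a difference of -2.47. Dkk1, a secreted Wnt inhibitor, was at 9.18 in knockdown and 10.89 in control cells, a difference of -1.71. Other Wnt-linked clock genes stayed close, with Axin2 at 0.18 and Nkd1 at -0.05. Of the Notch-linked clock genes, Lfng, which modifies Notch receptors, differed by -0.10 under the filter, and Hes7, the clock repressor, by 0.00. The Notch target genes Nrarp (-0.44) and Hes1 (-0.29, other probe -0.13) were lower beyond the SD between probes of 0.207 but short of a call, Hes1 on its brightest probe only. At day 10 the only clock gene called was Dusp4, a phosphatase of the ERK pathway, at 10.22 in knockdown and 12.56 in control cells, a difference of -2.33, and the median was -0.12. Past the filter that day were 15 clock genes, and 3.62% of all genes were called lower and 2.5% higher.

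Presomitic mesoderm genes other than the members were called higher at day 4 and lower at day 10 where they were called. Of 19 measured, 15 were past the filter at day 4 and 11 at day 10. At day 4, 2 were called higher and 0 lower, with a median of -0.10, beside 0.804% of all genes called higher and 1.47% lower. The higher ones were caudal-type factors of the posterior body, Cdx4 at 10.28 in knockdown and 8.26 in control cells (2.01) and Cdx2 at 14.67 in knockdown and 12.96 in control cells (1.71). Tbx6, which acts upstream of Dll1 and Mesp2 in presomitic mesoderm, was at 10.42 in knockdown and 11.13 in control cells, a difference of -0.71 short of a call. The T-box factor T differed by -0.94 and Msgn1, a basic helix-loop-helix factor of the same tissue, by 0.07. At day 10, 3 were called lower, Fgf8 (-1.72 on its brightest probe, -0.49 and -0.05 on the others), Evx1 (-1.13) and Cdx1 (-1.06), and 0 higher, with a median of -0.14. With the values as deposited 1 was called lower. The shares over all genes past the filter at day 10 were 3.62% lower and 2.5% higher.

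Somite border and somite genes held 21 measured members, of which 11 were past the filter at day 4 and 10 at day 10. At day 4, 1 was called lower and 0 higher, beside 1.47% and 0.804% of all genes. The lower one was Fst, a binder of Activin, at 9.98 in knockdown and 11.14 in control cells, a difference of -1.16. For Foxc1, the partner of Foxc2, the day 4 difference was -0.45, under the filter, and the day 10 difference -0.19. At day 10, 3 were called higher and 0 lower, with a median of 0.25, and 5 were called higher with the values as deposited. The shares over all genes that day were 2.5% higher and 3.62% lower. Aldh1a2, which makes retinoic acid, was at 10.34 in knockdown and 7.96 in control cells (2.38). Tbx18, a factor of the anterior somite compartment and of epicardium, was at 13.56 in knockdown and 11.46 in control cells (2.10, other probe 1.49), and Tcf15, a factor of epithelial somites, was at 12.06 in knockdown and 10.73 in control cells (1.33).

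**Figure D3:**
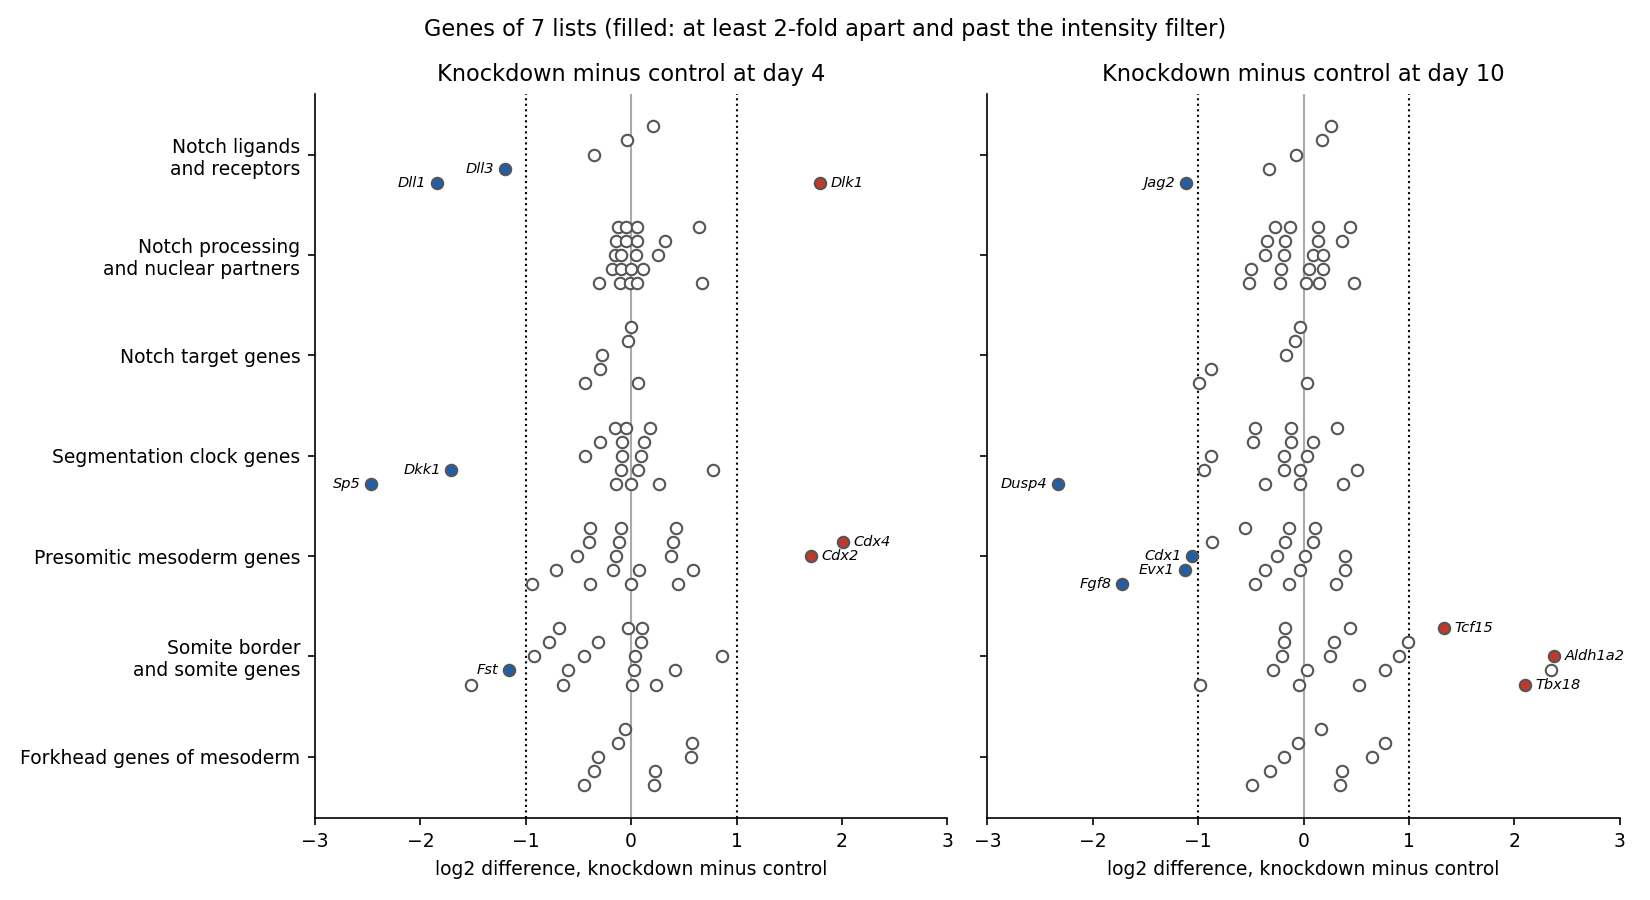
Log2 difference, knockdown minus control (horizontal axis), of each measured gene of 7 lists (rows), at day 4 on the left and day 10 on the right; each point is 1 gene from 1 pair of arrays, blue and red fills mark genes called lower and higher, open points were not called (those past the dotted 2-fold lines lay under the filter), and genes at the floor in both arrays are left out. Dll1 and Dll3 lie left of the 2-fold line at day 4 while the rows of Notch processing and target genes hold no filled point on either day.

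Over the control course the lists set the members in context. Of all genes past the filter, 12.8% were called higher and 13.9% lower in control day 4 cells against ESCs. For control day 10 against control day 4 the shares were 19.1% higher and 19.4% lower. In control day 4 cells against ESCs, 11 of 17 clock genes were called higher and 0 lower, among them Nkd1 (3.85, other probe 2.16), Id1 (3.43) and Sp5 (3.08), with Dkk1 at least 4.24 higher because its ESC array was at the floor. Of 19 presomitic genes 9 were called higher and 3 lower, including Rspo3 (7.02), Evx1 (6.88), Cdx2 (4.80) and Fgf8 (4.43, other probes 1.59 and 1.02). In control day 10 cells against control day 4, 9 of 19 presomitic genes were called lower and 0 higher, including T (-5.64), Evx1 (-5.01), Fgf4 (-4.51) and Rspo3 (-2.99). Mesp2 thus lacked the day 4 increase that T, Evx1 and Rspo3 showed over ESCs, and Dll1 was lower there. Other presomitic genes lacked that increase too, such as Hes7 (-0.01) and Ctnnb1 (0.13). The 3 called lower were Fgf4 (-4.73), Cdx1 (-1.78) and Fgf17 (-1.77).

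Mesp2 and Foxc2 lie in clusters with related genes, and over the days the neighbours had other courses. Mesp1, the neighbour of Mesp2 and a factor of cardiac progenitors, was at the floor in ESCs, at 12.86 in knockdown and 13.78 in control cells at day 4, and at the floor in both lines at day 10. Its knockdown minus control difference at day 4 was -0.92, short of a call, beside -1.12 for Mesp2. Control day 4 cells stood at least 7.13 above ESCs for Mesp1, against 0.06 for Mesp2. Anpep, on the other side of Mesp2, had a day 4 difference of -0.12, with both arrays under the filter. Foxf1, in the cluster of Foxc2 and a factor of lateral mesoderm, was at 7.74 in ESCs, at 13.60 in knockdown and 13.73 in control cells at day 4, and at 9.88 in knockdown and 9.24 in control cells at day 10. Its knockdown minus control differences were -0.13 at day 4 and 0.65 at day 10, beside -0.56 and 0.68 for Foxc2. Foxl1 was at 8.08 in knockdown and 8.14 in control cells at day 4, under the filter, and Mthfsd, next to Foxc2, had differences of 0.11 and 0.52.

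No neighbour of the Delta genes was called between the lines. Over all genes past the filter, 1.47% were called lower and 0.804% higher at day 4, and 3.62% and 2.5% at day 10. At those shares the lack of calls is no result about so few genes. Beside Dll1, Ermard differed by 0.11 and Fam120b, under the filter, by 0.07 at day 4, and by -0.28 and 0.39 at day 10. Beside Dll3, Eid2b differed by 0.10 and Timm50, a mitochondrial import protein, by -0.11 at day 4, and by 0.07 and -0.01 at day 10.

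**Figure D4:**
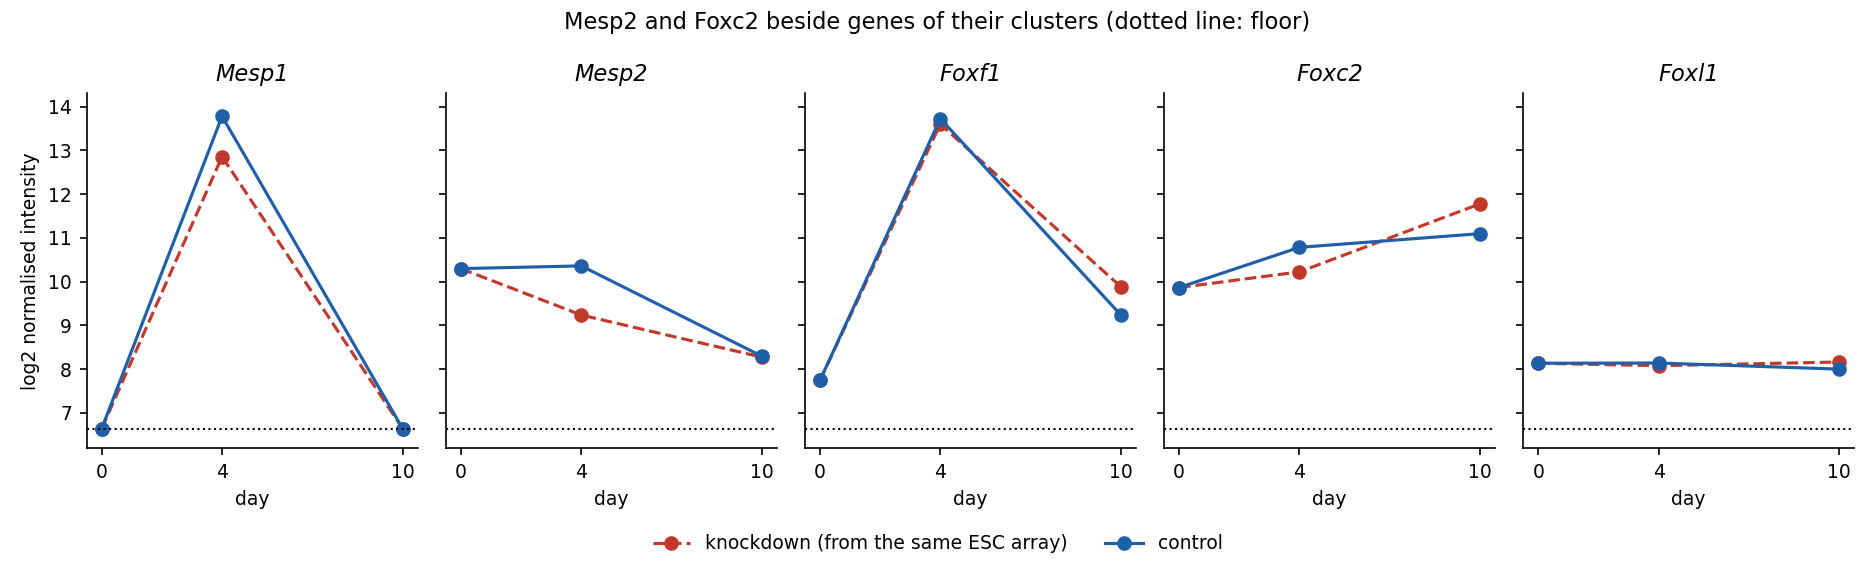
Log2 normalised intensity (vertical axis) by day (horizontal axis) for Mesp1, Mesp2, Foxf1, Foxc2 and Foxl1, dashed red for knockdown and solid blue for control cells, both drawn from the same ESC array at day 0; each point is 1 array and the dotted line is the floor. Mesp1 and Foxf1 peak at day 4 in both lines, Mesp2 differs by 0.06 between control day 4 and ESCs, and the Foxc2 lines cross between days 4 and 10.

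Patterns most like those of the members were found by the root mean square difference of centred log2 levels over the 5 arrays. The search covered 11761 genes past the filter on at least 1 array, leaving out gene models and clones. Ereg was at the floor in knockdown day 4 cells and Dll3 in both lines at day 10. Values for Ereg and Dll3 thus rest partly on the floor. Dll1 was closest to Ereg, an EGF-family ligand (0.267), Wasf3 (0.354), Rbm47 (0.391), Ccl11 (0.406) and Crb3 (0.425). Dll3 was closest to Zc3hav1 (0.112), Wnt3, a Wnt ligand of the primitive streak (0.211), L1cam (0.275), Usp18 (0.276) and Ifng (0.285). Mesp2 was closest to Them5 (0.0853), Ocm (0.167), Ptgds (0.191), Prdx6 (0.192) and Adgrd1 (0.194). Foxc2 was closest to Ackr3, a chemokine receptor (0.115), Pls3 (0.146), Creb3 (0.157), Rap1a (0.160) and Bet1 (0.160). Between members the same measure was 0.752 for Dll1 and Mesp2, 0.659 for Dll3 and Mesp2, 1.38 for Dll1 and Dll3 and at least 1.47 for Foxc2 and any other member. Among the 11761 genes Mesp2 ranked 390 in likeness to Dll1 and 992 in likeness to Dll3. In the other direction, Dll1 ranked 3519 and Dll3 2490 in likeness to Mesp2. Dll3 ranked 6933 in likeness to Dll1, and Dll1 8309 in likeness to Dll3. Foxc2 ranked 9403, 8892 and 9414 in likeness to Dll1, Dll3 and Mesp2.

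Markers of other cell types are given beside the members. At day 4, 1.47% of all genes past the filter were called lower and 0.804% higher. Early mesoderm markers were on the low side in knockdown cells at day 4, with 2 of 10, Mixl1 (-1.26) and Lhx1 (-1.11), called lower and a median of -0.71. Their summed intensity was 92866 in knockdown and 140820 in control cells. Of these early mesoderm markers, Pdgfra (0.28) and Eomes (0.16) lay on the high side. Eomes and Foxf1 (-0.13) were within the SD between probes. Pluripotency markers had a median of -0.49 with 1 of 8 called lower, Tfcp2l1 (-1.15, its other probe at the floor), and endothelial markers a median of -0.27 with 1 of 12 called lower, Tie1 (-1.15). Of 9 fibroblast markers 1 was called higher at day 4, Pdgfrb (1.56), and 0 lower, with a median of -0.05. Smooth muscle (6), lymphatic (5), cardiomyocyte (9) and secretory epithelium and endocrine (8) markers held 0 calls at day 4, with medians of 0.00, 0.04, 0.06 and -0.48. Of the 6 smooth muscle markers 2 were at the floor in both arrays and counted as 0 in the median. Of 10 measured neural progenitor markers, a cell type in which Dll1 and Dll3 are also known, 0 were called on either day. Only 5 of them were past the filter at day 4 and 3 at day 10, so the lack of calls is no result about this list. Their summed intensity at day 4 was 7533 in knockdown and 7529 in control cells. The part of any of these cell types in the day 4 differences of Dll1, Dll3 and Mesp2 was not tested.

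Mesenchymal and vascular markers are given beside the day 10 value of Foxc2. At day 10, 3.62% of all genes past the filter were called lower and 2.5% higher. At day 10 fibroblast markers had a median of 0.14 with 0 of 9 called and summed intensities of 379864 in knockdown and 360858 in control cells. Of 5 measured lymphatic endothelial markers 2 were called lower, Prox1 (-1.31) and Reln (-1.09), and 0 higher, while Pdpn differed by 0.67. The lymphatic median was -0.03, and the summed intensity was 49515 in knockdown and 36640 in control cells. Of 6 smooth muscle and mural markers 1 was called higher, Rgs5, at 12.72 in knockdown and 11.60 in control cells (1.12), and 0 lower, with a median of -0.11. Of 12 endothelial markers 1 was called higher, Cldn5 (1.14), and 0 lower, with a median of -0.02. The 9 forkhead genes of mesoderm held 0 calls on either day, with medians of -0.06 at day 4 and 0.16 at day 10. Of 9 cardiomyocyte markers 6 were called lower and 1 higher at day 10, with a median of -1.41, and of 8 secretory and endocrine markers 1 was called lower, Epcam (-1.48). Against ESCs, control day 4 cells had 3 of 9 fibroblast markers called lower and 0 higher, beside 13.9% and 12.8% of all genes past the filter. The median of these markers was -0.70, with summed intensities of 93558 in control day 4 cells and 102231 in ESCs. Those called, Dcn, Postn and Col1a2, were at 8.94, 9.25 and 8.27 in control day 4 cells and at 13.80, 13.77 and 12.39 in ESCs, which had been grown on feeder cells, while Col3a1 was at the floor in both and Fn1 differed by 0.93. The part of these cells in the ESC levels of Dll1, Mesp2 and Foxc2 was not tested.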

How the data were processed

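Total RNA was amplified and labelled with Cy5, per the labels' protocols, and Agilent Feature Extraction 10.7.1.1 appears in the submitters' processing notes. Each deposited value was a linear intensity of a probe. How the authors scaled these intensities was not stated in the labels or headers. Deposited medians ran from 344 to 745 and 75th percentiles from 2683.5 to 5007 over the 5 arrays, and 0 to 1050 probes per array were at or below 0, so values at or below 0 and unequal medians both occurred. Intensities were quantile normalised, floored at 100, which took 19.0 to 19.1% of probes per array, and converted to log2 values (Python 3.11.15, numpy 2.4.6, pandas 2.3.3). Of 26423 probes 20377 carried 1 symbol, 0 several and 6046 were unnamed. Symbols were updated through a table of GRCm38.p6 (18213 current, 2126 by synonym, 38 kept), which served for names and neighbours. Where several probes named a gene (2278 of 17742 genes), the brightest was used. In all list medians a gene at the floor in both arrays counted as 0.

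The members, the 16 lists (191 genes, 161 measured) and the rules were chosen with earlier results of these data known. Named list genes were those called between knockdown and control, the highest-level uncalled ones, up to 4 called per list in the control course, the 5 nearest patterns and the genomic neighbours. Tbx6, T, Msgn1, Foxc1, Lfng, Hes7, Axin2, Nkd1, Dll4, Jag2 and the cell type markers named singly were added for their roles, after their values were seen. Nrarp, Ctnnb1 and Fgf17 were also named after their values were seen. The calling steps were tested on simulated data. No test was run, since each group held 1 array, and precision is limited by that number. Alternatives were the values as deposited, scaling to the 75th percentile, loess centring (span 0.3, 3 iterations, statsmodels 0.14.6), floors of 50 and 200, the mean of all probes, other filters and other fold thresholds.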

Additional observations from a re-analysis of the deposited data

Results flagged for a closer look

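The knockdown minus control difference of Dll1 was 0.17 at day 10 and -1.84 at day 4, on opposite sides of 0, and the day 10 difference minus the day 4 difference was 2.01. The day 10 value lay within the SD between probes of 0.272, so its sign is not secure. For Foxc2 the difference was 0.68 at day 10 and -0.56 at day 4, each beyond the SD between probes of its day, and the day 10 difference minus the day 4 difference was 1.24. With 1 array per group neither difference between days was tested.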

How the results depend on the processing

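Dll1, Dll3 and Mesp2 stayed called lower in knockdown cells at day 4 with the values as deposited, scaling to the 75th percentile, loess centring, floors of 50 and 200, the mean of all probes, no filter and a 1.5-fold threshold. With a filter at the 75th percentile or a 4-fold threshold 0 of the 4 members were called lower, since their brighter arrays lay under that filter and their differences under 4-fold. At day 10 a 1.5-fold threshold called 1 member higher, Foxc2. For control day 4 against ESCs, 0 members were called higher with the filter at the 75th percentile or at 4-fold, 2 at 1.5-fold, and 0 were called lower at 4-fold. For control day 10 against control day 4, the filter at the 75th percentile left 0 called lower. For knockdown day 10 against knockdown day 4, that filter and the 4-fold threshold left 0 called higher, and 1 was called lower with the values as deposited, scaling to the 75th percentile and 1.5-fold (Mesp2) and with no filter (Dll3). The knockdown minus control differences of the members moved by less than the SD between probes under the other scalings, floors and probe means. Bounds for Dll3 in control day 10 against control day 4 followed the floor (-3.72 at 50 and -1.80 at 200). The values as deposited moved the median of all genes by 0.20 at day 4 and 0.37 at day 10, and differences in that setting were taken relative to it. Over all genes at day 4, 86 were called higher and 157 lower, against 24 and 33 with the filter at the 75th percentile, 279 and 400 at 1.5-fold, 12 and 18 at 4-fold, and 239 lower with no filter. At day 10, 272 were called higher and 394 lower, against 116 and 181, 795 and 924, and 63 and 60 in the first 3 of these settings. For control day 4 against ESCs the counts of 1447 higher and 1574 lower became 677 and 761, 2677 and 2432, and 450 and 658. For control day 10 against control day 4 the counts of 2182 higher and 2214 lower became 1222 and 1274 with that filter and 967 and 463 at 4-fold, with 3786 lower at 1.5-fold. For knockdown day 10 against knockdown day 4 the counts of 2138 and 2061 became 1202 and 1194, and 889 and 415, with 3686 lower at 1.5-fold. No paired analysis was possible because each group held 1 array. Low signal limits Dll3, and Mesp2 at day 10.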

Other observations

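In the knockdown line's own course from day 4 to day 10, the ligand list held 4 of 6 genes called higher, Jag1 (2.11), Dll4 (1.42), Jag2 (1.37) and Dlk1 (4.19, other probe 2.33), and 0 called lower. Of 19 presomitic mesoderm genes 11 were called lower and 0 higher in the same comparison, including Evx1 (-5.62), T (-4.31), Fgf8 (-4.01, other probes -2.13 and -0.42) and Cdx2 (-3.85). Among somite genes 4 of 21 were called higher, led by Tbx18 (5.20, other probe 5.25), and 3 lower, with 13 of the 21 past the filter. Over all genes past the filter, 18.7% were called higher and 18.1% lower in this comparison.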
